A study of Homo sapiens with 8 samples.

Results

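The genes described here are 9 transcriptional targets of p53: MDM2, CDKN1A, ZMAT3, FDXR, RRM2B, TNFRSF10B, GDF15, BTG2 and PLK3. They were taken by gene symbol, through the Ensembl identifier of each row, from the 58219 genes listed for every library. RNA was sequenced from H929 (NCI-H929) and KMS11 cells, which are established multiple myeloma (MM) lines and both t(4;14)-positive. Each line was grown for 24 h either in ethanol, the solvent control, or in 2 µM fluvastatin, a statin that inhibits HMG-CoA reductase, the rate-limiting enzyme of the mevalonate pathway. There were 2 biological replicates of each line and treatment, and thus 8 libraries in 4 groups. The study compared the treatments to find changes common to both lines. With 1 line of each kind, a difference between H929 and KMS11 is a difference between these cultures and cannot be assigned to any genotype.

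p53 is a transcription factor that is held at a low level by MDM2, an E3 ubiquitin ligase that marks it for degradation and is itself a p53 target, which closes a negative feedback loop. When DNA damage or another stress stabilizes the protein, it binds pairs of a 10-base motif in its target genes and raises their transcription. The targets halt the cell cycle (CDKN1A, BTG2, PLK3), supply deoxyribonucleotides for repair (RRM2B), act in mitochondrial electron transfer (FDXR), bind RNA (ZMAT3), receive death signals (TNFRSF10B) or leave the cell as a cytokine (GDF15). Several of them are also induced through other transcription factors.

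The DNA letters that p53 reads were located for the members with a RefSeq start, because binding at such sites is what makes a gene a direct target. A full site was defined as 2 copies of the p53 motif in a row, 20 bases, with at most 2 mismatches to the consensus and none in the central C and G of either copy, and the motif reads the same on both strands. Of the 7 members with a start in the table, 5 held a full site within 5 kb on either side of a start, and 8.79% of the 15277 genes compared held one. Each of the 5 held 1 such site, which is printed 5′ to 3′ on the strand of the gene, with the 4 central bases of each copy in capitals.
CDKN1A: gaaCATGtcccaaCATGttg
MDM2: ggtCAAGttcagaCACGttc
ZMAT3: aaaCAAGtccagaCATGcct
BTG2: acgCATGttcaggCATGcat
GDF15: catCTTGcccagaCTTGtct
In GRCh38, the CDKN1A site lies on the plus strand at chr6:36676449-36676468, 2256 bases before a RefSeq start at 36678714 and across the 5′ end of the gene as GENCODE annotates it, at 36676460. The MDM2 site lies on the plus strand at chr12:68808923-68808942, in an intron 760 bases after the first RefSeq start and shortly before a later one. The ZMAT3 site, on the minus strand at chr3:179070188-179070207, matched the consensus with 0 mismatches and is intronic in the annotation, 856 bases before a RefSeq start. The BTG2 site lies upstream of the gene on the plus strand at chr1:203303642-203303661, 1868 bases before a RefSeq start. The GDF15 site lies in an intron of the annotated gene, on the plus strand at chr19:18385308-18385327, 840 bases before a RefSeq start. For FDXR and PLK3 no full site was found in this window by these letters. In the 300-base promoters alone (250 bases before to 50 after a start), MDM2 held its full site, before the later start, as did 0.34% of the genes compared, and FDXR held a single copy of the motif with no mismatch, as did 8.11%. A match of letters is a description of the sequence and was not tested for binding.

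The libraries held 26702515 to 41910446 expected counts each, the number of fragments that RSEM assigned to genes. Levels are given below as CPM, which are counts scaled to the size of the library by edgeR's TMM method, to compare libraries, and as TPM, which are also scaled by transcript length, to compare genes. Replicates varied 9.52 to 35.8 times as much as counting error alone would give, most of all in KMS11 fluvastatin, where replicate 1 had 88.1% of its counts in protein-coding genes and the other KMS11 libraries 90.8 to 91.4%. Plasma cell markers were present in both lines (JCHAIN at 3935 to 6237 TPM, SDC1 at 38.8 to 122 TPM), except for CD38, at 22.6 TPM in H929 ethanol and 0.025 TPM in KMS11 ethanol. Markers of T cells (CD3D), monocytes (CD14, LYZ), B cells (MS4A1) and fibroblasts (COL1A1, COL1A2) stayed at or below 0.17 TPM. CD3E reached 3.54 TPM in H929, HBB 0.94 TPM, and EPCAM, an epithelial marker, stood at 33.9 TPM in KMS11 ethanol and 0.015 TPM in H929 ethanol, and the part of these transcripts in the differences between the lines was not tested. In bulk RNA, a change in the share of cells that express a gene and a change in RNA per cell cannot be told apart.

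**Figure D1:**
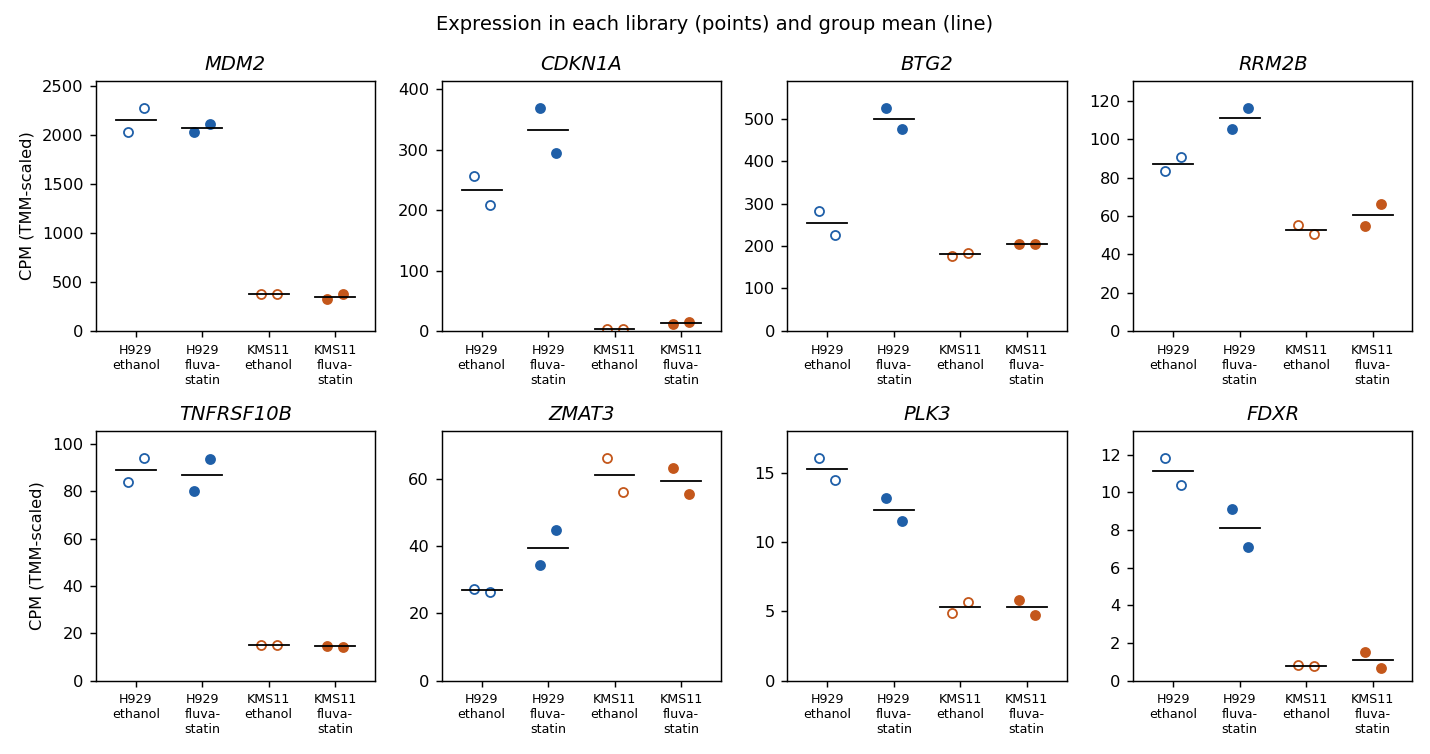
Expression of the 8 target genes that could be tested, in CPM on a linear axis from 0, with a point for each library (open for ethanol, filled for fluvastatin; blue for H929, orange for KMS11) and a line at each group mean of 2 libraries. CDKN1A lies near the axis in KMS11, MDM2 and TNFRSF10B lie close to their control values with fluvastatin in both lines, BTG2 rises in H929, and ZMAT3 is the gene with more transcript in KMS11.

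Before the drug, the p53 targets were for the most part expressed at a lower level in KMS11 than in H929, as the plot of the values in each library shows. In ethanol, all 8 members that could be tested differed between the lines, 7 lower and 1 higher in KMS11, against 72% of all 13129 protein-coding genes tested (36.4% lower and 35.6% higher in KMS11). The ninth member, GDF15, a stress-induced cytokine of the TGF-β family, held 2 counts in all 8 libraries together, 1 in H929 ethanol replicate 1 and 1 in H929 fluvastatin replicate 2, and did not pass the filter on low counts. Its level in the other 6 libraries was 0, and 3 counts would have been 0.0783 to 0.132 CPM, so that any larger amount would have been detectable at this depth.

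CDKN1A, which encodes the cyclin-dependent kinase inhibitor p21, showed the widest gap of the members. It stood at 257 and 209 CPM in the H929 ethanol libraries and at 2.56 and 3.17 CPM in the KMS11 ethanol libraries. The KMS11 values rested on 98 and 116 counts, well above the depth limit. CDKN1A was 81.3-fold lower in KMS11 (log2 fold change -6.34, SE 0.20, adjusted p = 4.4e-09 in the quasi-likelihood test of edgeR, adjusted by Benjamini-Hochberg over all genes tested as for every adjusted p below). FDXR, ferredoxin reductase, followed, with 11.8 and 10.4 CPM in H929 and 0.809 and 0.766 CPM in KMS11, or 14.0-fold lower (log2 fold change -3.81, SE 0.32, adjusted p = 3.4e-06).

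MDM2 was among the most abundant transcripts of H929. Its 2037 and 2281 CPM in H929 ethanol compared with 373 and 376 CPM in KMS11 ethanol, and it was 5.76-fold lower in KMS11 (log2 fold change -2.53, SE 0.11, adjusted p = 2.9e-08). By TPM it ranked 106th to 121st among protein-coding genes in the 4 H929 libraries and 660th to 813th in the 4 KMS11 libraries. TNFRSF10B, which encodes the TRAIL death receptor DR5, had 84.0 and 94.3 CPM in H929 ethanol and 14.9 CPM in each KMS11 ethanol library, a 5.98-fold difference (log2 fold change -2.58, SE 0.12, adjusted p = 4.7e-08). For both genes the spread within a line was small beside the gap between the lines.

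The other members differed less. PLK3, a polo-like kinase of the stress response, had 16.1 and 14.5 CPM in H929 ethanol and 4.88 and 5.72 CPM in KMS11 ethanol (2.89-fold lower, adjusted p = 2.7e-05). RRM2B, the p53-inducible small subunit of ribonucleotide reductase, had 83.3 and 90.8 CPM against 55.3 and 50.5 CPM (1.64-fold lower, adjusted p = 3e-04). In both genes the lines did not overlap. BTG2, an antiproliferative protein that recruits the deadenylase complex to mRNA, had 282 and 225 CPM against 177 and 183 CPM (1.41-fold lower, adjusted p = 0.003), and on TPM its group means were 47.6 in H929 and 47.7 in KMS11. ZMAT3, an RNA-binding regulator of splicing, went the other way, with 27.4 and 26.4 CPM in H929 ethanol and 66.4 and 56.0 CPM in KMS11 ethanol (2.27-fold higher in KMS11, adjusted p = 4.6e-05).

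The scale matters for the smallest of these gaps, because the median gene was 0.46 higher in KMS11 on log2(TPM + 1) and -0.02 on the count scale. In limma on log2(TPM + 1), 6 members were lower and 1 higher in KMS11, and BTG2 was at 0.02, which is -0.44 relative to the median gene on that scale. ZMAT3 was at 1.16 on TPM and 0.70 above the median gene, and CDKN1A at -4.84 on TPM and -5.30 relative to the median gene.

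The order of the transcript levels of the members, by mean TPM, also differed between the lines. In H929 ethanol, MDM2 (467 ± 33.5 TPM, SD, n = 2) was followed by CDKN1A (56.5 ± 8.05) and BTG2 (47.6 ± 8.58), whose libraries overlapped, and then by TNFRSF10B (13.5 ± 1.13), RRM2B (10.7 ± 0.467), PLK3 (6.0 ± 0.0707), FDXR (3.23 ± 0.502) and ZMAT3 (1.59 ± 0.0424), whose libraries did not overlap with those of their neighbours. In KMS11 ethanol, MDM2 was again first (103 ± 9.84 TPM, SD, n = 2) and BTG2 second (47.7 ± 1.48), followed by RRM2B (8.03 ± 0.686), ZMAT3 (4.795 ± 0.728), TNFRSF10B (3.33 ± 0.608), PLK3 (2.57 ± 0.156), CDKN1A (0.995 ± 0.0919) and FDXR (0.325 ± 0.00707), with no overlap between neighbours. CDKN1A thus stood second in H929 and seventh in KMS11. With fluvastatin, BTG2 (93.2 ± 6.11 TPM) stood above CDKN1A (80.6 ± 10.7 TPM) in H929, while in KMS11 CDKN1A moved up to the fourth place (4.22 ± 0.827 TPM), where its libraries overlapped with those of ZMAT3 (4.15 ± 0.113 TPM).

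**Figure D2:**
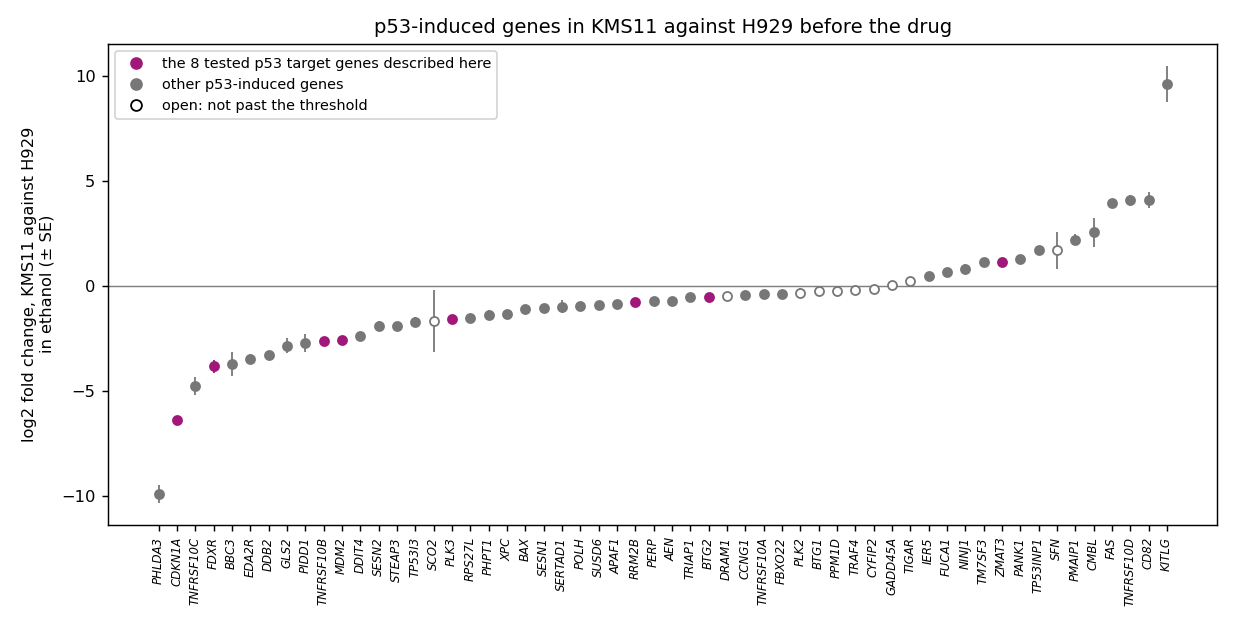
Log2 fold change of p53-induced genes in KMS11 against H929 in ethanol, with SE bars, in rising order, for the 8 tested target genes described here (purple) and 48 other p53-induced genes (grey). Filled points are past the adjusted p threshold of 0.05; 7 of 8 and 26 of 48 lie below 0 and past it.

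The plot of p53-induced genes in ethanol sets the members beside other p53 targets of general knowledge. Of the 54 genes of that list, 48 could be tested, 26 were lower and 12 higher in KMS11, and their median log2 fold change was -0.49, beside -2.03 for the 8 members and -0.02 for all genes tested. On log2(TPM + 1) the split was 14 lower and 12 higher. Some other lists were also for the most part lower in KMS11 ethanol on counts, where 36.4% of all genes tested were lower and 35.6% higher. The lists of p53 regulators and of genes repressed through p21, described below, had medians of 0.14 and -0.02. Of 17 integrated stress response genes, 13 were lower and 1 higher (median -1.30). Of 10 markers of plasma cells or of t(4;14), 8 were lower and 1, FGFR3, was higher (median -1.29). Of 17 immediate early genes, 9 were lower and 3 higher (median -0.79). On log2(TPM + 1), 9 integrated stress response genes were lower and 3 higher, and 5 immediate early genes were lower and 4 higher. Among the genes with the widest gaps at a mean log2 CPM of at least 1, EDA2R, a receptor of the TNF receptor superfamily (-3.44), DDB2, a subunit of the damaged-DNA-binding complex (-3.26), and PIDD1, a death domain protein (-2.67), were lower in KMS11. The decoy TRAIL receptor gene TNFRSF10D (4.11) and the death receptor gene FAS (3.96) were higher in KMS11, with FAS at 18.3 CPM in H929 and 285 CPM in KMS11. The outermost points are genes with almost no counts in 1 line, PHLDA3 (0.013 CPM in KMS11 ethanol and 16.5 CPM in H929 ethanol) and KITLG (listed at 0 CPM in H929), which were picked after their values were seen and whose fitted fold changes depend on the prior count.

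Fluvastatin raised 4 of the 8 tested members in H929: BTG2, ZMAT3, CDKN1A and RRM2B. The count of members that rose stands beside 22.7% of all genes tested that rose in this line and 19.3% that fell, or 42% in both directions. No member fell by edgeR, also at an unadjusted p under 0.05, and by DESeq2 the count was likewise 4 higher and 0 lower, whereas limma on log2(TPM + 1) gave 2 higher and 2 lower (FDXR and PLK3).

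BTG2 showed the largest rise in H929. It went from 282 and 225 CPM in ethanol to 525 and 475 CPM in fluvastatin, so that both treated libraries stood well above both controls. The change was 1.97-fold (log2 fold change 0.98, SE 0.11, adjusted p = 0.00014), and it held without any 1 library, with values from 0.83 to 1.15. CDKN1A went from 257 and 209 CPM to 370 and 296 CPM, also without overlap (1.43-fold, log2 fold change 0.51, SE 0.15, adjusted p = 0.018). This call was lost when either H929 ethanol replicate 2 (then 0.37) or H929 fluvastatin replicate 1 (then 0.34) was left out.

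ZMAT3 rose in H929 from 27.4 and 26.4 CPM to 34.3 and 44.7 CPM, 1.47-fold (log2 fold change 0.55, SE 0.15, adjusted p = 0.013). The treated libraries lay apart from each other, and the call was lost without H929 ethanol replicate 2 or fluvastatin replicate 2, with the lowest value at 0.35. RRM2B went from 83.3 and 90.8 CPM to 106 and 116 CPM, a modest 1.28-fold (log2 fold change 0.35, SE 0.12, adjusted p = 0.033). Its call was lost when any 1 of 5 libraries was left out (either ethanol library of either line, or H929 fluvastatin replicate 2), and over all 8 libraries left out in turn the value ranged from 0.28 to 0.42.

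The remaining members did not pass the threshold in H929. MDM2 stood at 2037 and 2281 CPM in ethanol and at 2033 and 2119 CPM in fluvastatin, and the log2 fold change of -0.06 had a 95% interval of -0.25 to 0.14. TNFRSF10B stood at 84.0 and 94.3 CPM and then at 80.4 and 93.6 CPM (log2 fold change -0.04, interval -0.25 to 0.18). The treated and control libraries of these genes overlapped. FDXR (11.8 and 10.4 CPM, then 9.14 and 7.09 CPM, log2 fold change -0.45, adjusted p = 0.2) and PLK3 (16.1 and 14.5 CPM, then 13.2 and 11.5 CPM, log2 fold change -0.31, adjusted p = 0.17) were lower in both treated libraries without passing. FDXR was past the threshold without KMS11 fluvastatin replicate 1 (-0.48) or 2 (-0.49).

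**Figure D3:**
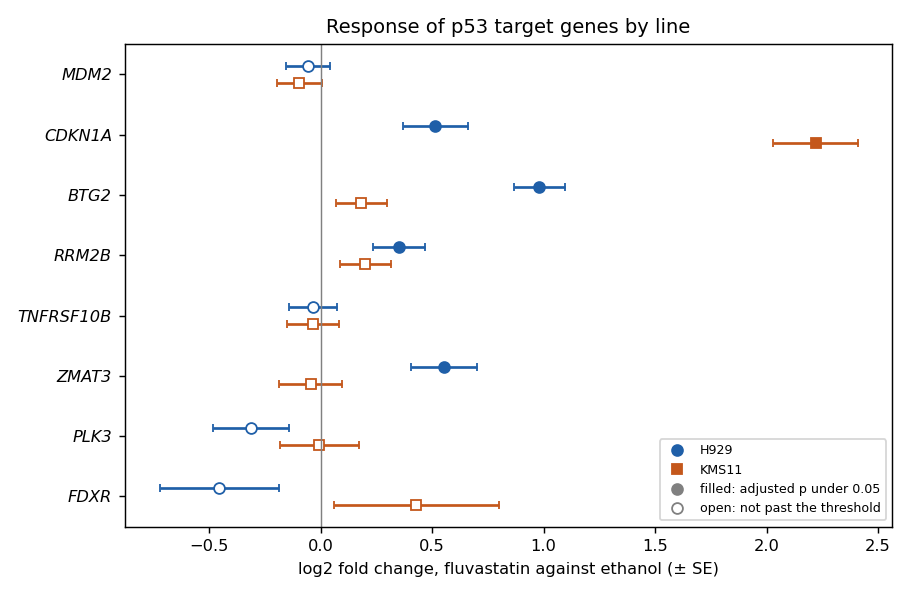
Log2 fold change of the 8 tested members in fluvastatin against ethanol, with SE bars, in H929 (blue circles) and KMS11 (orange squares), filled where the adjusted p is under 0.05. CDKN1A lies at 0.51 in H929 and at 2.22 in KMS11, BTG2 at 0.98 and 0.18, and MDM2 and TNFRSF10B near 0 in both lines.

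In KMS11, fluvastatin raised CDKN1A and no other tested member, against 2.58% of all genes tested that rose and 0.533% that fell (3.12% in both directions). CDKN1A went from 2.56 and 3.17 CPM in ethanol to 12.02 and 14.6 CPM in fluvastatin, or from 98 and 116 counts to 333 and 558. Both treated libraries stood well above both controls, and yet remained below every H929 library. The rise was 4.66-fold (log2 fold change 2.22, SE 0.19, adjusted p = 0.00027), and with any 1 library left out it lay between 2.02 and 2.35 and stayed past the threshold. By TPM, CDKN1A ranked 9958th and 10211th among protein-coding genes in the KMS11 ethanol libraries and 7377th and 7986th with fluvastatin.

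The other 7 tested members did not pass the threshold in KMS11. MDM2 stood at 373 and 376 CPM in ethanol and at 324 and 376 CPM in fluvastatin (log2 fold change -0.10, 95% interval -0.29 to 0.10). BTG2 stood at 177 and 183 CPM and then at 205 and 204 CPM, a small and even gap (log2 fold change 0.18, interval -0.04 to 0.41, adjusted p = 0.37). RRM2B stood at 55.3 and 50.5 CPM and then at 55.0 and 66.5 CPM (log2 fold change 0.20, interval -0.03 to 0.43). For RRM2B the treated libraries reached from within the control values to above them.

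ZMAT3 was at 66.4 and 56.0 CPM in KMS11 ethanol and at 63.2 and 55.5 CPM in KMS11 fluvastatin (log2 fold change -0.04, 95% interval -0.32 to 0.23). TNFRSF10B was at 14.9 CPM in both control libraries and at 14.8 and 14.4 CPM in the treated ones (log2 fold change -0.03, interval -0.26 to 0.19), and PLK3 at 4.88 and 5.72 CPM and then at 5.81 and 4.78 CPM (log2 fold change -0.01, interval -0.36 to 0.34). FDXR, at 31 and 28 counts in ethanol and 42 and 26 in fluvastatin, was the least precise (log2 fold change 0.43, interval -0.30 to 1.15). A gene that did not pass is not shown to be unaffected, and the intervals give the approximate range of changes that these data allow.

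Whether the lines responded differently was tested directly, as the fold change in KMS11 minus that in H929. It was past the threshold for 2 of the 8 members, against 23.2% of all genes tested (11.7% higher and 11.5% lower in KMS11). CDKN1A rose more in KMS11, by 1.71 on the log2 scale (SE 0.24, adjusted p = 0.0014), and BTG2 rose less, with a difference of -0.80 (SE 0.16, adjusted p = 0.0077). Both calls held with any 1 library left out. For ZMAT3 the difference was -0.60 (SE 0.20, adjusted p = 0.059), past the threshold without H929 fluvastatin replicate 1 (-0.77) or KMS11 fluvastatin replicate 1 (-0.68), and also by DESeq2 (-0.65). For FDXR it was 0.88 (SE 0.46, adjusted p = 0.19), past the threshold without KMS11 fluvastatin replicate 2 (1.39). For MDM2 the difference was -0.04 (95% interval -0.32 to 0.24) and for TNFRSF10B 0.00 (interval -0.31 to 0.31), for RRM2B it was -0.15 (interval -0.47 to 0.17) and for PLK3 0.31 (interval -0.18 to 0.79).

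Taken across both lines with the line as a term, 1 of the 8 members passed the threshold, against 10.4% of all genes tested (6.5% higher and 3.93% lower). That member was CDKN1A, with a log2 fold change of 1.27 (SE 0.32, adjusted p = 0.04), an average of unequal responses. The call was lost without any 1 library other than H929 fluvastatin replicate 2, with fold changes from 0.99 to 1.55. BTG2 (0.58, SE 0.16, adjusted p = 0.054) was past the threshold without KMS11 fluvastatin replicate 1 (0.65) and by DESeq2 (0.57). RRM2B (0.28, adjusted p = 0.091) and ZMAT3 (0.25, adjusted p = 0.29) did not pass, and MDM2, TNFRSF10B, FDXR and PLK3 lay between -0.16 and -0.03.

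The other p53-induced genes moved in both directions in H929, in shares near those of all genes. Of the 48 tested, 13 rose and 11 fell with fluvastatin, or 27.1% and 22.9% beside 22.7% and 19.3% of all genes tested, with a median log2 fold change of -0.05 beside 0.16 for the 8 members and 0.02 for all genes tested. Among the largest rises were those of SESN2, which restrains mTORC1 (2.00, SE 0.19, adjusted p = 4.8e-05) and DDIT4, a further mTORC1 inhibitor (1.63, SE 0.17, adjusted p = 6.7e-05). PERP, a desmosome protein (1.43), and PMAIP1, which encodes the BH3-only protein NOXA (1.41), followed. SESN2 and DDIT4 are also in the list of integrated stress response (ISR) genes, of which 17 of 17 tested rose in H929 and 7 rose in KMS11, or 1 when either KMS11 ethanol library was left out. Without H929 fluvastatin replicate 2, the counts among the other p53-induced genes were 8 higher and 7 lower.

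In KMS11, the 48 gave 15 higher and 2 lower at an unadjusted p under 0.05 by edgeR. Of all 13129 genes tested, 1794 were higher and 1080 lower at that level. Past the threshold, 5 rose and 0 fell by DESeq2, and 3 and 0 by limma. Over all genes, 926 of 13129 were called by DESeq2 and 269 of 10880 by limma, in both directions together. By edgeR 4 of the 48 rose and 0 fell, or 8.33% and 0% beside 2.58% and 0.533% of all genes tested. They were SESN2 (1.25, SE 0.20, adjusted p = 0.011), NINJ1, a plasma membrane protein of cell lysis (1.39, SE 0.22, adjusted p = 0.01), and, below the level set for naming genes, BBC3 and SFN. BBC3, which encodes the BH3-only protein PUMA, went from a mean of 0.176 to 1.53 CPM in KMS11 (adjusted p = 0.028) and from 2.30 to 10.1 CPM in H929 (adjusted p = 0.0023). SFN, which encodes 14-3-3 sigma, went from 0.252 to 2.67 CPM in KMS11 (adjusted p = 0.0085). All of these calls in KMS11 were lost without KMS11 ethanol replicate 1 or replicate 2, and more of the list passed without KMS11 fluvastatin replicate 2. The calls over all genes fell and rose in the same fits.

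The difference between the lines was past the threshold for 12 of the 48, 6 in each direction, or 12.5% higher and 12.5% lower beside 11.7% and 11.5% of all genes tested. DDIT4 (-1.22) and TNFRSF10D (-1.22) had negative differences, whereas PIDD1 (2.10) and PANK1, a pantothenate kinase (1.21), had positive differences. The counts were 4 and 2 without KMS11 ethanol replicate 1, and 8 and 10 without KMS11 fluvastatin replicate 2. Across both lines 8 of the 48 rose and 2 fell, or 16.7% and 4.17% beside 6.5% and 3.93% of all genes tested. Fewer of the rises and none of the falls passed with any 1 H929 library left out. Without KMS11 ethanol replicate 2, fewer rises and fewer falls passed. In all of these fits fewer of all genes passed too.

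**Figure D4:**
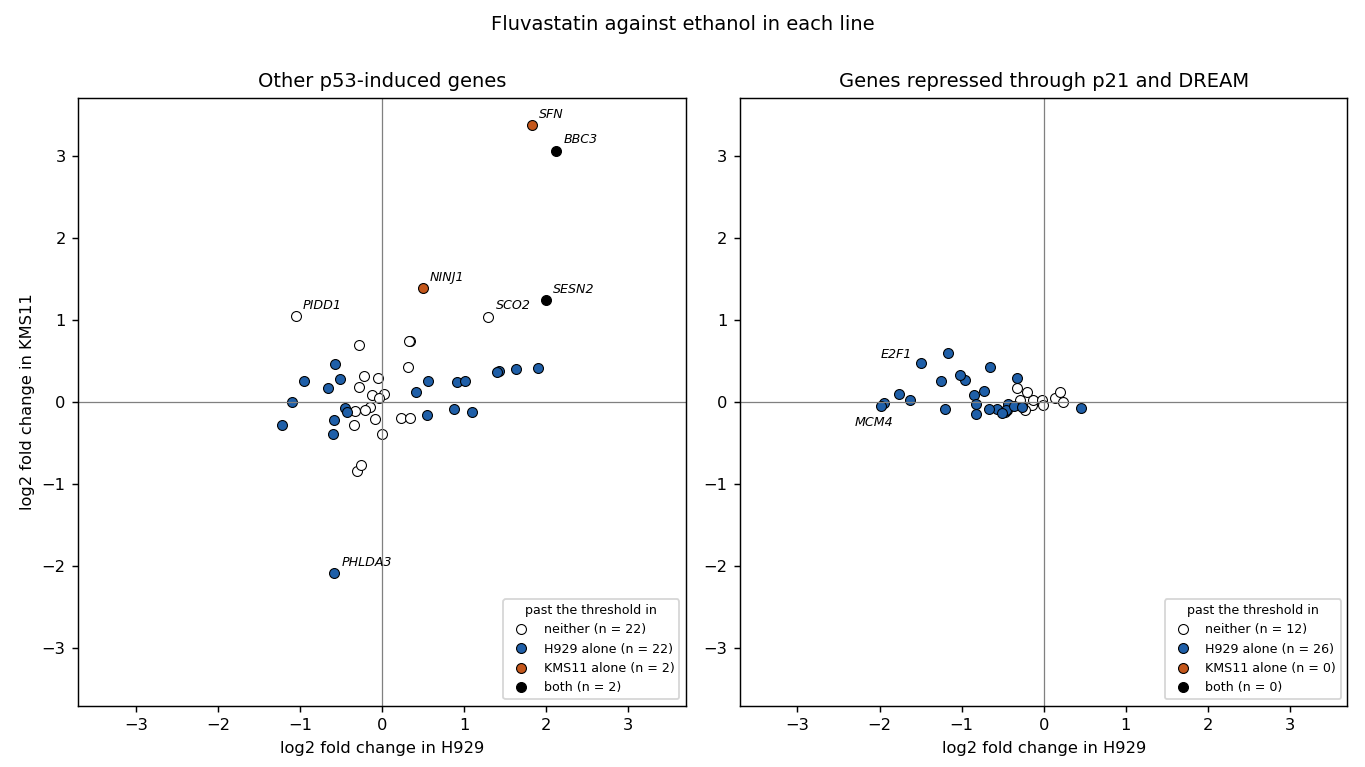
Log2 fold change in fluvastatin against ethanol in H929 (horizontal) and KMS11 (vertical) for 48 other p53-induced genes (left) and 38 genes repressed through p21 and the DREAM complex (right), coloured by the line in which the adjusted p is under 0.05. The p53-induced genes spread in both directions along both axes, while the repressed genes spread to negative values in H929 and stay near 0 in KMS11.

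Genes that p53 represses through p21 and the DREAM complex, which silences cell cycle genes in quiescent and arrested cells, fell in H929. Of 38 such genes, 25 fell, or 65.8%, beside 19.3% of all genes tested, and 1 rose (NEK2, 0.45), beside 22.7%, with a median log2 fold change of -0.47 beside 0.02 for all genes tested. The rise of NEK2 was not past the threshold without H929 ethanol replicate 1 or without fluvastatin replicate 2 of that line. The largest falls were in MCM4 (-1.98), MCM2 (-1.94), MCM7 (-1.77) and MCM3 (-1.63), subunits of the replicative helicase, and in E2F1 (-1.49), a transcription factor of S phase entry. MCM4 went from a mean of 455 to 115 CPM in H929 and from 284 to 275 CPM in KMS11.

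In KMS11, where CDKN1A rose 4.66-fold from its low level, none of the 38 passed the threshold by edgeR (5 higher and 0 lower at an unadjusted p under 0.05) or by limma, and 3 were higher and 0 lower by DESeq2, while without KMS11 fluvastatin replicate 2 edgeR gave 4 higher and 0 lower. Their median log2 fold change was -0.01. Over all 13129 genes tested in KMS11, 1794 were higher and 1080 lower at an unadjusted p under 0.05 by edgeR, and 926 were called by DESeq2. The difference between the lines was past the threshold for 18 of the 38, with 17 higher and 1 lower in KMS11. These are 44.7% and 2.63%, beside 11.7% and 11.5% of all genes tested. The higher ones were led by E2F1 (1.97, SE 0.17, adjusted p = 0.00014), MCM4 (1.93), MCM2 (1.93), MCM7 (1.86) and MYBL2 (1.76), an activator of G2/M genes. Before the drug, 16 of the 38 were lower and 9 higher in KMS11 on counts. These are 42.1% and 23.7%, beside 36.4% and 35.6% of all genes tested. On log2(TPM + 1), 7 were lower and 22 higher, so that the balance of the list between the lines turned with the scale. Across both lines, 1851 of all 13129 genes tested were lower and 2285 higher at an unadjusted p under 0.05 by edgeR. Past the threshold, DESeq2 called 2538 genes there and limma 1366 of 10880, in both directions together. Across both lines 0 passed by edgeR (13 lower and 0 higher at an unadjusted p under 0.05), 9 were lower by DESeq2 and 5 by limma, and with any 1 library left out edgeR gave 0 to 4 lower, with 1 without KMS11 ethanol replicate 1, 3 without KMS11 fluvastatin replicate 1 and 4 without KMS11 fluvastatin replicate 2.

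Regulators of p53 formed the last list, 19 genes that modify, stabilize or degrade the protein. In H929, 5 fell and 1 rose, or 26.3% and 5.26% beside 19.3% and 22.7% of all genes tested, and 3 fell when either H929 fluvastatin library was left out. The checkpoint kinase genes CHEK1 (-1.47, SE 0.13, adjusted p = 2.7e-05) and CHEK2 (-1.14, SE 0.13, adjusted p = 0.00014) and PRKDC, the catalytic subunit of DNA-dependent protein kinase (-0.78), fell the most, along with HIPK2 (-0.50). MDM4, the MDM2 paralog that blocks p53 transactivation, rose (0.45, SE 0.12, adjusted p = 0.016), a call lost when either ethanol library of either line, or H929 fluvastatin replicate 2, was left out. In KMS11, 0 of the 19 passed by edgeR (3 higher and 4 lower at an unadjusted p under 0.05) or limma, and 1 was lower by DESeq2. Of all 13129 genes tested, 1794 were higher and 1080 lower at that unadjusted level, and 926 were called by DESeq2. The products of CDKN2A include the MDM2 inhibitor ARF, and gene-level counts do not tell its products apart. The difference between the lines was past the threshold for 4, CHEK1 (1.44), CHEK2 (0.85), PRKDC (0.83) and CDKN2A (0.67). All 4 were positive as KMS11 minus H929, or 21.1% of the 19 higher and 0% lower, beside 11.7% and 11.5% of all genes tested. The count was 2 when either KMS11 ethanol library was left out. Across both lines, CHEK2 alone of the 19 passed (-0.71), and the count was 0 with any 1 H929 library left out and 2 lower with either KMS11 fluvastatin library left out. In ethanol, 7 were higher and 6 lower in KMS11 on counts and 13 higher and 0 lower on log2(TPM + 1). On counts these are 36.8% and 31.6%, beside 35.6% and 36.4% of all genes tested.

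The genes whose log2 CPM followed a member most closely over the 8 libraries were found among 8855 well-expressed protein-coding genes. Since the points share lines and libraries, Pearson's r is given as a description. The closest to MDM2 were OAT (0.9994), CDKN2C (0.9988) and ERAP2 (0.9987), and CDKN2C was also the closest to TNFRSF10B (0.9993). SOCS2 (0.9982) and EEF1A1 (0.9981) followed for TNFRSF10B. The closest to CDKN1A were TGOLN2 and HMCES (0.9983 each) and NDRG1 (0.9954), and the closest to BTG2 were C19orf12 (0.9976), WIPI1 (0.9956) and SMIM14 (0.9926). FDXR was followed most closely by RPP25L (0.9993), BRPF3 (0.9984) and PIF1 (0.9982), and PLK3 by SCNM1 and NARF (0.9975 each) and GRWD1 (0.9971). RRM2B was closest to DDHD2 (0.9965), INSIG2 (0.9963) and SLK (0.9955), and ZMAT3, with the lowest values, to LPP (0.9891), ICA1 (0.989) and SLX4IP (0.9878).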

How the data were processed

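The authors isolated total RNA from 2 biological replicates of each line and treatment, prepared stranded libraries after depletion of ribosomal RNA, sequenced paired-end reads of 75 bases, and aligned them to GRCh38 (GENCODE 26) with STAR 2.5.2b. The authors estimated gene-level expected counts with RSEM 1.3.0, which divides fragments that fit several genes between them, and deposited these without normalization. The deposited TPM values were also made by the authors with RSEM, by scaling for effective length over all listed genes. FPKM values were not used.

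Gene symbols, positions and biotypes came from GENCODE 44, which holds 57392 of the 58219 listed identifiers. All 9 members were matched. The analysis used edgeR 4.0.16 (R 4.3.3), after rounding of the expected counts. Genes were kept by filterByExpr (minimum count 10, minimum total count 15) and scaled by TMM, and 13129 protein-coding genes entered the quasi-likelihood F test, whose p values were adjusted by Benjamini-Hochberg over all of them and held to a threshold of 0.05. Fluvastatin was compared with ethanol across both lines with cell line as a term and, from the 4 group means, within each line, between the responses, and between the lines in ethanol. The SE is the log2 fold change divided by the square root of F. Intervals are at 95% by a normal approximation, and are thus somewhat narrower than the F test itself would give. With 2 libraries in each group an exact permutation test cannot go below p = 0.33, so the fit pools the spread over genes and groups. The scripts were tested on simulated data.

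The members and the gene lists were chosen with earlier results of these data known, the lists being written from general knowledge of the pathway. Named genes were all members, up to 5 genes of each list with the largest change past the threshold in a comparison (mean log2 CPM 1 or more), and the 3 genes most correlated with each member (mean log2 CPM 3 or more). Some genes that the rule names are not reported here. Others are said to have been picked after their values were seen. Lists are described by counts and medians, without a set test. Sites of p53 were searched in GRCh38 around RefSeq starts, and chromosome 8, which carries RRM2B and TNFRSF10B, was not used here.

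Alternatives were DESeq2 1.42.0, its size factors, library size scaling, no filter, a minimum count of 30, a fit on all annotated genes, treatment without a cell line term, the replicate block, leaving out each library, limma 3.58.1 on log2(TPM + 1), and GC content or gene length offsets.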

Additional observations from a re-analysis of the deposited data

Results flagged for a closer look

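CDKN1A and BTG2 are singled out because their responses to fluvastatin differed between the lines in the test of the difference itself. They make up 12.5% of the 8 tested members in each direction. Of all genes tested, 11.7% were higher and 11.5% lower, so the share of members is near that of all genes. CDKN1A rose more in KMS11 than in H929, by 1.71 on the log2 scale. BTG2 rose in H929 and did not pass the threshold in KMS11, and the difference, KMS11 minus H929, was -0.80. The first gene is 81.3-fold lower in KMS11 before the drug, and whether the starting level has a part in the difference was not tested.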

How the results depend on the processing

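The calls for BTG2 in H929, CDKN1A in KMS11 and both differences between the lines kept their direction and their side of the threshold under all 18 alternatives run for each. The same was true in ethanol of all tested members except BTG2, which turned to 0.015 in limma on log2(TPM + 1). Over all members and comparisons, 659 values kept both, 22 lost the call, 17 gained one and 30 changed sign. The count across both lines, 1 in the main analysis, was 2 with DESeq2, 2 with no filter, 3 with the GC content offset, 0 with no cell line term and 0 with the replicate block, and 0 to 1 with a library left out. In H929 the count of 4 ranged from 1 to 5 with a library left out, at 1 without H929 ethanol replicate 2 and at 2 when its fluvastatin replicate 2 was left out, and in KMS11 it was 2 with the GC content offset. Where the H929 count was 5, the call gained was FDXR, which was lower with fluvastatin (-0.48 and -0.49). The labels do not say that replicate numbers mark a shared batch. Deviations of same-numbered libraries from their group means correlated at 0.702 to 0.774 among the H929 groups and KMS11 fluvastatin, but at -0.18 to -0.08 between KMS11 ethanol and those 3 groups, so the numbers were not taken as pairs and the replicate block is an alternative. It left 4 calls in H929 and 1 in KMS11, took the call of CDKN1A across both lines (1.29) and gave ZMAT3 one for the difference (-0.58). Of the other p53-induced genes it gave 1 higher and 0 lower across both lines and 9 and 1 in KMS11, and of the DREAM-repressed genes 4 higher and 0 lower in KMS11. Over all genes, the 1370 calls across both lines became 158 with it, 2538 with DESeq2, 3017 with the GC content offset and 4 with no cell line term, and the 409 in KMS11 became 1637 with it, 926 with DESeq2, 1557 with the GC content offset and 1098 with no filter. The GC content offset also gave 5 regulators higher and 6 lower in H929. With the KMS11 numbers crossed, which was chosen after seeing the data because the ethanol groups of the lines correlated at -0.12, all 8 members still differed in ethanol.

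For the values that changed sign, the cause was not tested. With the GC content offset they were TNFRSF10B in H929 (0.038), ZMAT3 (0.063) and FDXR (-0.011) in KMS11, and the differences of MDM2 (0.13), RRM2B (0.10), TNFRSF10B (-0.10) and PLK3 (-0.31). TNFRSF10B was at 0.010 in H929 with limma, and its difference at -0.045 with DESeq2, -0.045 with its size factors, -0.011 with a minimum count of 30 and -0.14 with limma. PLK3 in KMS11 was at 0.018 with library size scaling. With a library left out, values ranged across both lines from -0.41 to 0.086 for FDXR and -0.082 to 0.0079 for TNFRSF10B, in H929 from -0.14 to 0.028 for MDM2 and -0.15 to 0.068 for TNFRSF10B, in KMS11 from -0.19 to 0.054 for ZMAT3, -0.22 to 0.90 for FDXR and -0.16 to 0.090 for PLK3, and for the difference from -0.16 to 0.082 for MDM2 and -0.10 to 0.12 for TNFRSF10B. The 26 to 42 counts of FDXR in KMS11 limit its precision.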

Other observations

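BTG2 and PLK3 are also known as immediate early genes, which cells transcribe within minutes of a growth or stress signal and without new protein synthesis. A list of 20 other immediate early genes was therefore counted beside the members, and 17 could be tested. In H929, 9 of the 17 rose with fluvastatin and 0 fell, beside 22.7% and 19.3% of all genes tested. The count was 6 without H929 ethanol replicate 2. In KMS11, 5 rose and 0 fell, beside 2.58% and 0.533%, and across both lines 6 rose and 0 fell, beside 6.5% and 3.93%. With a library left out, 4 to 7 rose in KMS11 and 5 to 7 across both lines.

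JUN, a subunit of the AP-1 transcription factor, showed the largest rise of the immediate early genes of the list past the threshold in each line. Its mean level went from 4.83 to 61.2 CPM in H929 (log2 fold change 3.66, SE 0.19, adjusted p = 1.9e-06) and from 4.45 to 37.1 CPM in KMS11 (log2 fold change 3.06, SE 0.18, adjusted p = 2.4e-05). JUND, a related AP-1 subunit, rose by 1.27 in H929 and by 2.08 in KMS11. NR4A1, an orphan nuclear receptor, rose in H929 (1.25, adjusted p = 0.014), where it went from a mean of 6.60 to 15.8 CPM. DUSP1, a phosphatase of MAP kinases, rose in KMS11 (0.85, adjusted p = 0.037), from 4.58 to 8.27 CPM. The rise of BTG2 in H929 (0.98) thus went along with rises in this list, whereas PLK3 did not pass the threshold there (-0.31). In KMS11 neither BTG2 (0.18) nor PLK3 (-0.01) passed, while genes of the list rose there too. Whether the rises share a cause was not tested.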
